A study of Mus musculus with 22 samples.

Results

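The genes described here are 9 genes of oligodendrocytes and their myelin: Mbp, Mog, Mag, Mobp, Cnp and Cldn11, which code for myelin proteins, and Olig1, Olig2 and Sox10, which code for transcription factors. They were chosen by name, and all 9 were among the 24911 genes of each expression table. The study measured poly(A) RNA of mouse cells and tissues in 22 libraries, and no group had more than 1 library. The main question here was how the 9 genes differed between the 3 brain libraries, labelled putamen, medulla oblongata and sensorimotor cortex, and the second was where they were found in the other 19. Those 19 held 7 libraries of primary B cells: cells from spleen, cultures with aBCD180, with aCD40+IL4 or with LPS+a-d-dextran, and cultures with LPS alone, with both LPS and IL21 or with both LPS and IL4, where LPS is lipopolysaccharide and IL4 and IL21 are cytokines. CD4 T cells made up 9 libraries. In 4 populations, namely CD4+ cells, regulatory (Tfr) and helper (Tfh) cells of the follicle and activated non-Tfh cells sorted as CXCR5- and PD1-, a library marked MUT stood beside one without that mark, and the ninth was CD4+ cells given ConA, the mitogen concanavalin A. What MUT stands for is not given in the labels. The last 3 were basophils, back skin and CH12, a mouse B-lymphoma line grown as clone bc5. The labels give the strain, C57BL/6J, for the isolated B cells, and no strain, age or sex for the donors of the brain or skin tissue.

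Oligodendrocytes are the glial cells that wrap axons of the brain and spinal cord in myelin, a stack of lipid-rich membrane that speeds the conduction of nerve impulses. Olig2 and Olig1, a pair of basic helix-loop-helix factors, set up the lineage, and Sox10, an HMG-box factor, is needed for its maturation and binds near many myelin genes. Myelin-rich tissue such as the brainstem, where long fibre tracts run, is known to hold more myelin RNA than grey matter such as cortex.

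Levels are given as TPM, a relative abundance of transcripts that is corrected for transcript length and sums to the same total in each library. Total expected counts, the reads assigned to genes, ran from 30.8 M to 147.9 M with a median of 46.15 M, and were 43.0 M in putamen, 46.3 M in medulla and 52.5 M in cortex. The brain labels fitted their marker genes, counting genes that met the 2-fold rule described below. All 6 putamen markers, among them Drd1 and Ppp1r1b of striatal neurons, were higher in putamen than in both other regions. Of 6 medulla markers, the 5 with a TPM of at least 10, 4 Hox genes and the glycine transporter gene Slc6a5, were higher in medulla than in both other regions, and all 6 cortex markers, such as Tbr1 and Neurod6, were higher in cortex than in putamen and medulla. The cortex library also differed from the other 2 in Ddx3y, a Y-linked gene, at 0.09 TPM against 42.17 in putamen and 57.47 in medulla. Whether this difference had a part in the regional results was not tested. With 1 library a region, intervals of ratios cover counting error only, and no regional difference could be set against a spread between animals.

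The 9 genes lie on 8 chromosomes of the mm10 genome, and only Olig1 and Olig2 share 1. Olig2 (chr16:91225457-91228677) and Olig1 (chr16:91269772-91271933), both on the plus strand, were 41.1 kb apart. Mog (chr17:37010743-37023398), Mag (chr7:30899176-30914873) and Sox10 (chr15:79154908-79165240) lie on the minus strand. Mobp (chr9:120149707-120181484), Cnp (chr11:100574904-100591729) and Cldn11 (chr3:31149920-31164324) lie on the plus strand. Since the genes were all highest in medulla and differed in where else they were found, the sequence just before the start site is shown for 5 of them, each up to the first annotated exon base of the gene, from RefSeq on build GRCm38.p6. The table held 6 of the 9 genes. Mag has several starts there and was not printed. Capitals mark CG dinucleotides, and each sequence reads 5′ to 3′ along the gene's own strand, at chr17:37023399-37023648 for Mog, chr9:120149492-120149706 for Mobp, chr3:31149670-31149919 for Cldn11, chr11:100574689-100574903 for Cnp and chr16:91225300-91225456 for Olig2.
Mog: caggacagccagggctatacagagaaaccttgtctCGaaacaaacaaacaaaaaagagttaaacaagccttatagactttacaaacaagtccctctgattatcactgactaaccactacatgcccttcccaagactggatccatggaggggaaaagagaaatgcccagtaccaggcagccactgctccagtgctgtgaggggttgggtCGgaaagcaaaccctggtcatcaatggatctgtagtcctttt
Mobp: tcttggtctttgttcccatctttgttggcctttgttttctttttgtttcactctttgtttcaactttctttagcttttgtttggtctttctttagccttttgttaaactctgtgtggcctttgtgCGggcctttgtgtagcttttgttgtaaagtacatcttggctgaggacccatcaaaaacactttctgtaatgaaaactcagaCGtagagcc
Cldn11: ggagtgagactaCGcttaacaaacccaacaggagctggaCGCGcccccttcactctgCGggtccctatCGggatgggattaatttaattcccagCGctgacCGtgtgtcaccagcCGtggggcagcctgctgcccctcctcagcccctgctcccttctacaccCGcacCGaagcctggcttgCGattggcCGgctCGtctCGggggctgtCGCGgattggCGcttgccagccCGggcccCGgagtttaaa
Cnp: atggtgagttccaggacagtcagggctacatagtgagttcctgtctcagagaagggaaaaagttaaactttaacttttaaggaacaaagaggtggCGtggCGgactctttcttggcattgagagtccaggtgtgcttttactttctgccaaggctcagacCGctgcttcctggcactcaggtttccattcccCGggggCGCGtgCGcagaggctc
Olig2: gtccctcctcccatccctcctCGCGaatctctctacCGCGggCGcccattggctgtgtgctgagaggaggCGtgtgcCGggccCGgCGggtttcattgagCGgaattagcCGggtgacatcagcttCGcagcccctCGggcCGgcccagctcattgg

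The promoters of this set were unlike each other in base composition. Mog held 2 CG in 250 bases and Mobp 2 in 215 bases, and 18.8% and 22.5% of all 32851 mouse promoters in the table had fewer in a window of the same length. Cldn11 held 19 in 250 bases, more than 80.3% of promoters, and Olig2 held 14 in 157 bases, more than 88.3%. Cnp, the only one of the 5 found at high levels outside brain, lay between them with 7 in 215 bases, more than 58.9%. The E-box letters CANNTG, searched on both strands as the kind of site that basic helix-loop-helix factors bind, occurred once in the Cnp window and in none of the other 4, while 66.2% of all windows of 250 bases and 50.8% of those of 157 bases held them. The letters ACAAT, 1 form of the core of Sox sites, and TATAAA were in none of the 5 on either strand. Of all windows of 250 bases, 27.7% and 12.4% held them. The shares were 25.1% and 9.8% at 215 bases, and 19.3% and 7.5% at 157 bases. Other forms of the Sox core were not searched over all promoters. Of these, ACAAAG can be read in the printed Cnp window, and the Mobp window holds CTTTGT, which reads ACAAAG on the other strand. How common this form is among promoters was not counted, so no comparison can be made for it. A match to 1 of the motifs searched is not by itself a match to another, but sites can share letters. A match or its absence in such a window is a description of the letters alone.

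All 9 genes were found in all 3 brain libraries, and all 9 were highest in medulla. Mbp, whose basic protein holds the inner faces of the myelin membrane together, was by far the most abundant, at 5552 TPM in putamen, 19733 in medulla and 4302 in cortex. It ranked first among all genes in putamen and medulla and in place 3 in cortex, and alone made up 0.56%, 1.97% and 0.43% of all TPM in those libraries. The 9 genes together made up 0.75% of TPM in putamen, 2.47% in medulla and 0.59% in cortex. Below Mbp the order was almost the same in each region, from Mobp, Cnp and Cldn11 through Mag, Olig1 and Mog to Olig2 and Sox10. In putamen Cnp stood just above Mobp, at 499.8 against 491.5 TPM, and in cortex Olig1 stood above Mag, at 202.3 against 166.7 TPM.

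Medulla stood above cortex for all 6 myelin protein genes, by 3.09 to 4.59 times, and above putamen by 2.38 to 3.55 times. Mbp showed the largest ratio, 4.59 against cortex (95% counting interval 4.56 to 4.61) and 3.55 against putamen (3.54 to 3.57). Mag, an adhesion protein of the innermost myelin layer that faces the axon, was at 226.1 TPM in putamen, 662.0 in medulla and 166.7 in cortex. Its ratio of medulla to cortex was 3.97 (3.88 to 4.07). Mog, an immunoglobulin-like protein of the outermost myelin surface, was at 132.7, 390.0 and 103.1 TPM in the same order, which gave 3.78 (3.64 to 3.93). The remaining 3 had smaller ratios than these, with intervals that did not reach theirs.

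Mobp, a small basic protein of compact myelin, was at 491.5 TPM in putamen, 1287 in medulla and 399.5 in cortex, a ratio of medulla to cortex of 3.22 (3.17 to 3.27). Cldn11, the claudin that seals the layers of the sheath with tight junctions, was at 323.7, 771.3 and 246.1 TPM, a ratio of 3.13 (3.06 to 3.21). Cnp, a cyclic nucleotide phosphodiesterase that keeps cytoplasmic channels open in myelin, was at 499.8, 1193 and 386.2 TPM, a ratio of 3.09 (3.04 to 3.14). In each of these genes putamen and cortex lay close together and medulla lay apart from both.

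The 3 transcription factor genes were also highest in medulla, with smaller ratios to cortex than the myelin protein genes. Olig1 was at 194.2 TPM in putamen, 448.0 in medulla and 202.3 in cortex, and its medulla level was 2.21 times that of cortex (2.16 to 2.27) and 2.31 times that of putamen (2.24 to 2.37). Olig2 was at 47.65, 105.5 and 42.53 TPM, with ratios of 2.48 (2.36 to 2.61) and 2.21 (2.10 to 2.33). Sox10 was at 27.17, 64.63 and 23.00 TPM, with ratios of 2.81 (2.63 to 3.0) and 2.38 (2.23 to 2.54). Every interval of the 3 factors against cortex lay below those of the 6 myelin protein genes, the nearest being Sox10 up to 3.0 and Cnp from 3.04. Against putamen the 2 groups met, with Sox10 and Cldn11 both at 2.38. The median ratio over the myelin protein genes was 3.5 against cortex and 2.78 against putamen, and over the factors 2.48 and 2.31.

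The sum of TPM of the 6 myelin protein genes was therefore not a fixed multiple of that of the 3 factors. It was 26.9 times the factors' sum in putamen, 38.9 times in medulla and 20.9 times in cortex. Mbp alone made up 74.1%, 80.0% and 73.3% of the TPM of the 9 genes in the same order, so these multiples mostly follow Mbp. For each Olig2 transcript there were 116.5 of Mbp in putamen, 187.0 in medulla and 101.1 in cortex, while Olig1 per Olig2 stayed between 4.08 and 4.76. For Mog, less abundant than Mbp, there were 2.79 in putamen, 3.70 in medulla and 2.42 in cortex. In bulk tissue, fewer cells of a type and less RNA per cell cannot be told apart, and this holds for every regional value here.

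By a rule of size used in place of a test, a difference of at least 1 in log2(TPM + 1), about 2-fold, and a level of 10 TPM or more in the higher library, 9 of 9 genes were higher in medulla than in cortex. Of all 10199 genes with a TPM of at least 10 in either library, 8.01% were higher in medulla by that rule and 9.09% higher in cortex, and the median difference over them was 0.03. The 9 genes had a median difference of 1.64. Against putamen, 9 of 9 were higher in medulla, beside 10.4% of 10368 genes higher in medulla and 9.3% higher in putamen, with median differences of 1.25 for the 9 genes and 0.05 for all genes. The members nearest to the threshold of 1 were Olig1 against cortex, at 1.14, and Olig2 against putamen, at 1.13.

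Putamen and cortex differed little. None of the 9 genes met the rule between them, beside 5.4% of 10089 genes higher in putamen and 6.9% higher in cortex. With a TPM minimum of 1 that balance turned, from 43.9% to 57.0% of the genes that met the rule being higher in putamen. All 6 myelin protein genes were somewhat higher in putamen, from 1.23 times for Mobp (1.21 to 1.25) to 1.36 times for Mag (1.32 to 1.40), with a median of 1.29. Olig2 was 1.12 times (1.05 to 1.19) and Sox10 1.18 times (1.09 to 1.28) its cortex level. Olig1 alone was lower in putamen, at 0.96 times (0.93 to 0.99). All 9 intervals excluded 1 as far as counting goes, but differences of this size could not be told from the spread between animals, which a single library does not show.

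**Figure D1:**
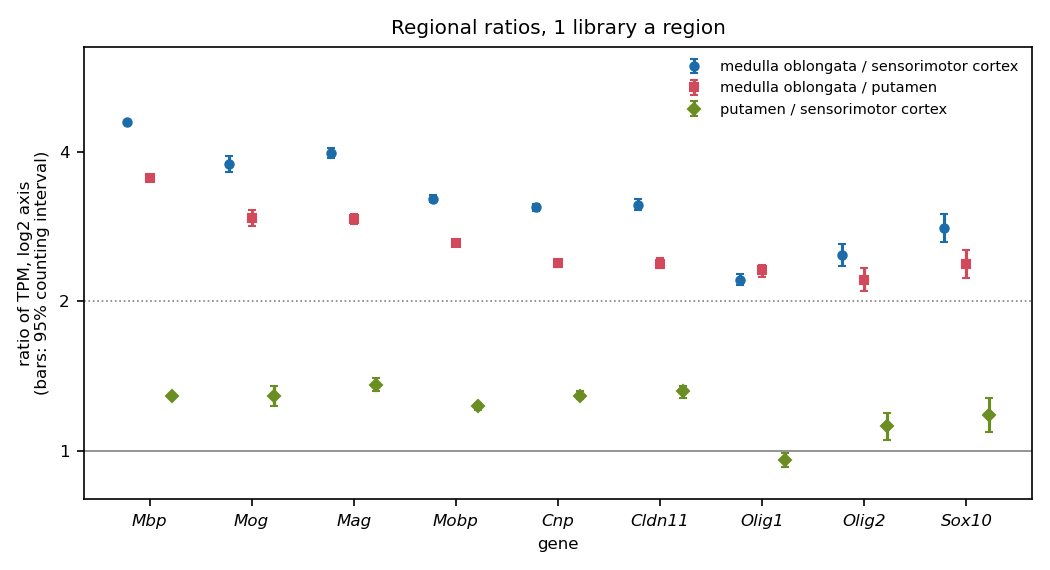
Ratio of TPM between regions for each of the 9 genes on a log2 axis, with bars for the 95% counting interval, a dotted line at 2 and a solid line at 1. Both comparisons with medulla lie above 2 for all 9 genes and are largest for Mbp, and the ratios of putamen to cortex lie between 0.96 and 1.36.

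Other genes of myelin showed the same order of regions. Of 12 other genes for myelin proteins, 12 met the rule in medulla against cortex and 11 against putamen, with median log2 differences of 2.0 and 1.6. Mal, a small membrane protein of myelin, was at 253.9 TPM in putamen, 557.6 in medulla and 199.2 in cortex, and Ermn, a cytoskeletal protein of mature oligodendrocytes, at 70.17, 241.4 and 50.04 TPM. The exception against putamen was Opalin, a marker of mature oligodendrocytes, at 36.20 TPM in putamen and 67.05 in medulla.

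All 6 genes for the synthesis of myelin lipids met the rule in both comparisons, with medians of 1.98 and 1.61. Ugt8a, which makes galactosylceramide, was at 61.61 TPM in putamen, 220.2 in medulla and 41.78 in cortex. Fa2h, which hydroxylates the fatty acids of these lipids, was at 44.96, 163.4 and 34.85 TPM, and Aspa, which releases acetate for lipid synthesis, at 34.39, 93.62 and 19.37 TPM. Between putamen and cortex no gene of the myelin protein list or of the lipid list met the rule, and their medians of 0.39 and 0.42 lay near the 0.36 of the 9 genes.

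The lists of factors and precursor genes were mixed. Of 8 other transcription factors of the lineage, 5 had a TPM of at least 10 in cortex or medulla, and 3 of these were higher in medulla, both against cortex and against putamen. They were Nkx6-2, at 24.48, 93.56 and 15.48 TPM in putamen, medulla and cortex, Myrf, the factor that switches on myelin genes in mature cells, at 23.15, 72.36 and 21.07 TPM, and Nkx2-2. Sox8, a relative of Sox10, did not follow them, at 66.40, 64.89 and 44.20 TPM. Of 8 genes of oligodendrocyte precursors and newly formed oligodendrocytes, 3 met the rule in both comparisons. These were C1ql1 (19.76, 86.88 and 15.45 TPM), Lhfpl3 (18.09, 39.02 and 12.87 TPM) and Enpp6 (9.74, 23.77 and 4.91 TPM). Gpr17, a receptor of committed precursors, was nearly level at 34.77, 41.40 and 38.42 TPM. The precursor genes Pdgfra, at 23.15, 22.89 and 20.48 TPM, and Cspg4, at 5.48, 4.94 and 5.35 TPM, were nearly level too. The list medians were 0.70 against cortex and 0.39 against putamen, below those of the myelin lists.

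The genes of nodes, the gaps between myelin segments, and of the regions beside them, such as paranodes, did not share the difference. None of 11 met the rule in medulla against cortex, with a median of 0.13. Against putamen 2 did, the axonal adhesion gene Cntn2 and the potassium channel gene Kcna2. Cntn1, whose protein anchors the myelin loops at the paranode, was at 133.0 TPM in putamen, 223.8 in medulla and 167.9 in cortex, and its partner Cntnap1 at 214.5, 142.0 and 192.2 TPM.

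Markers of other brain cells moved between the same libraries. Of 10 neuron markers, the 3 neurofilament genes Nefl, Nefm and Nefh were higher in medulla than in cortex, while Rbfox3 and Syt1 were lower, and the median was 0.01. Of 8 astrocyte markers, Gfap, Aqp4 and Aldoc were higher in medulla, with Gfap at 115.4 TPM in putamen, 2139 in medulla and 158.8 in cortex, and the median was 0.81. None of 9 microglia markers met the rule, with a median of -0.55 and all 9 below 0, and none of 6 endothelial markers did, with a median of 0.03. These values are against cortex. Against putamen, 5 of 10 neuron markers were higher in medulla, namely Snap25, Stmn2 and the neurofilament genes, and Syt1 was lower. Their median was 0.92, beside 1.25 for the 9 genes. The medians of the astrocyte, microglia and endothelial markers against putamen were 0.56, -0.54 and -0.1. Neuron markers separated putamen from cortex where the 9 genes did not, with 5 of 10 higher in cortex and a median of -1.08. The part of such differences in cell makeup in the regional ratios was not tested.

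**Figure D2:**
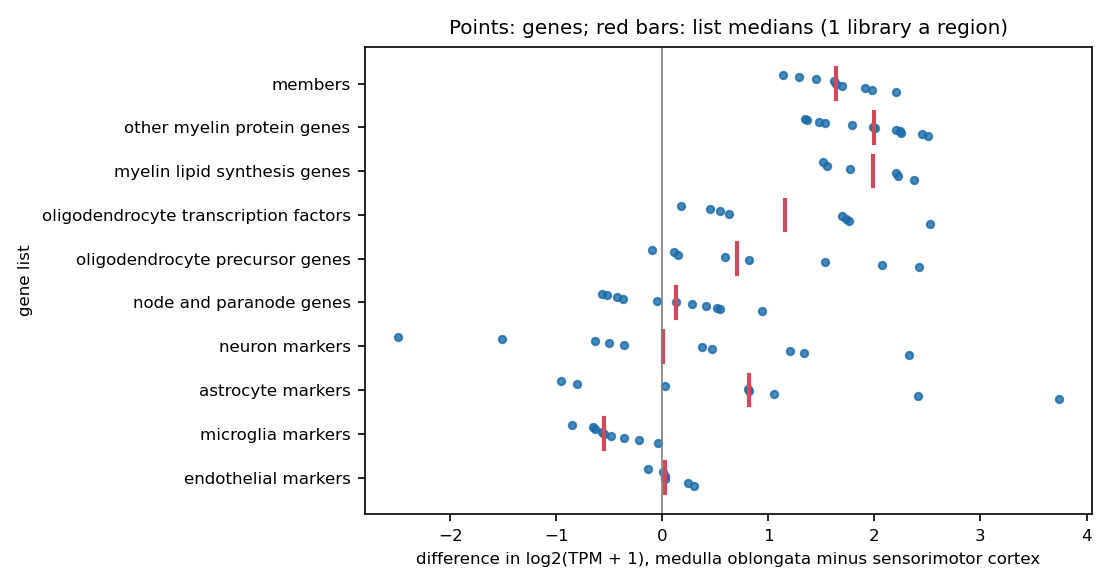
Difference in log2(TPM + 1), medulla oblongata minus sensorimotor cortex, for each gene (points) of the 9 genes and 9 other lists (rows), with a red bar at each list's median. The 3 upper rows lie wholly to the right of 1, while node, neuron, microglia and endothelial genes are spread around or left of 0.

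The 3 brain libraries were compared with the 19 from outside the brain by edgeR's quasi-likelihood test. At an adjusted p under 0.05, 53.7% of 16123 genes were called, 27% higher in brain and 26.7% lower, so a call alone is common. Calls were split evenly, with 50.2% of them higher in brain, against 67.3% with limma on log2(TPM + 1). Whether the libraries came from separate animals is not given in the labels, so a p-value here reflects only how these libraries differ among themselves, which may be technical, and the 3 brain libraries are different regions. The 7 genes other than Mbp and Cnp passed the filter on low counts only through the brain libraries, where they are high, so their levels are described without a test.

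Mog, Mobp and Olig1 were each listed at 0 in 16 of the 19 libraries, Olig2 in 18, Sox10 in 14, Cldn11 in 12 and Mag in 4. In no library outside brain did any of these 7 genes reach 1 TPM. Taking 3 counts as the limit that a count of 0 allows in each library, the lowest brain level was at least 5087-fold higher for Mobp, at least 2292-fold for Cldn11, at least 2277-fold for Mag and at least 2007-fold for Olig1 than in those libraries listed at 0. The same bound was 832-fold for Mog, 494-fold for Olig2 and 298-fold for Sox10, the bounds being set by depth and by the brain level. For Mag it covers only 4 libraries, and cortex exceeded basophils, the highest library outside brain, 273-fold (190 to 408). For Mog, cortex exceeded the highest, CD4+ ConA, 1720-fold (871 to 3980).

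The few counts outside brain were not spread evenly. The CD4+ ConA library, the most deeply sequenced at 147.9 M counts, held all 6 of Mog, Mobp, Cldn11, Olig1, Olig2 and Sox10, with 36 counts in all and 0.19 TPM. Splenic B cells, at 105.5 M counts, held 1 count of the same 6 genes. All 10 neuron markers were above 0 in CD4+ ConA, which outside brain held only there and in basophils. Their summed level in CD4+ ConA, 13.52 TPM, lay within the range of 3.09 to 101.7 TPM over the 19 libraries. Most of that sum came from Syp, at 6.72 TPM, and Nefh, at 4.16 TPM. In 9 of the 19 libraries none of these 6 genes had a count. The part of depth, or of any other source, in these counts was not tested.

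Back skin held the highest level outside brain of Sox10, Cldn11 and Olig1. Sox10 reached 0.81 TPM there on 55 counts, and the cortex level was 28.4 times that (21.7 to 37.9). Cldn11 was at 0.41 TPM on 19 counts, which cortex exceeded 600-fold (384 to 998), and Olig1 at 0.17 TPM on 9 counts. Sox10 is also a factor of Schwann cells, the myelin cells of nerves, and of melanocytes, the pigment cells, and markers of both were found in skin. Of the Schwann cell list, Pmp22 was at 62.13 TPM, Egr2 at 36.83 and Prx at 5.12, and of the melanocyte list, Mitf was at 40.96, Dct at 9.69, Mlana at 5.70 and Pmel at 4.63. Of these, 3 were higher in other libraries, with Egr2 at 142.9 TPM in aCD40+IL4 B cells, Pmp22 at 101.9 in medulla and Pmel at 19.34 in CD4+ cells. The other named genes were highest in skin. In skin 8 of 11 genes of the Schwann cell list and 5 of 8 of the melanocyte list reached 1 TPM. Basophils came next for Sox10, at 0.24 TPM on 14 counts. Which cells of the skin held these transcripts was not tested.

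Mbp and Cnp stood apart from the other 7 in that both were found in all 19 libraries outside brain. Mbp ranged there from 5.08 TPM in CH12 through a median of 71.66 to 153.2 in non-Tfh cells. By edgeR it was higher in brain by 5.64 ± 0.57 (SE) on the log2 scale, with an adjusted p of 4.66e-08, and it was higher in each of the 3 brain libraries than in any of the 19. The gap between cortex, the lowest brain library, and non-Tfh cells was 28.1-fold in TPM and 9.9-fold in counts scaled to library totals (CPM). TPM is corrected for transcript length, whereas CPM and the counts of the fit are not. With counts corrected for effective transcript length, a setting chosen after seeing the data, the edgeR difference in Mbp was 6.85.

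The length of the transcripts shows which kinds of Mbp RNA were present. The tables give, for each gene and library, the length of its transcripts averaged by their abundance. For Mbp it was 2045 bases in putamen, 2021 in medulla and 2058 in cortex. In the 7 primary B libraries it was 4725 to 4779 bases, in the 9 CD4 T libraries 4530 to 4737, and in basophils 4789. The ranges of brain and of these 17 blood cell libraries were far apart, whereas the B and T ranges overlapped.

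Mbp, on the plus strand of chromosome 18, spans 110.5 kb. The tables list 8 RefSeq transcripts of it, all of which were found in the GENCODE annotation. The longest, of 4797 bases and 4 exons, starts at the upstream end of the gene and ends inside it. A second, of 2492 bases, has the same upstream start, and the other 6, of 638 to 2070 bases, start 79 kb or more downstream. As background, transcripts from the upstream start are known as golli, and are known from immune cells as well as the nervous system, while the downstream start gives the classic myelin basic proteins. An average length above 2492 bases can arise only with the longest transcript present, which gives bounds on its share of Mbp transcripts. It was at least 96.9% in every primary B library, at least 88.4% in every CD4 T library and at least 99.7% in basophils. In brain its share could be 0 and was at most 34.1%, and these lengths do not separate the other 7 transcripts from each other. The lengths rest on RSEM's division of short reads among transcripts, and no read was examined here.

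Back skin and CH12 differed from the blood cells. In skin, with Mbp at 17.80 TPM on 1311 counts, the average length was 2936 bases, so the longest transcript made up 19.3% to 55.3%. In CH12, with 5.08 TPM on 379 counts, it was 2349 bases, which allows a share of 0 to 41.1%. CH12 is a B-cell line, yet its average length was below that of all 7 primary B libraries.

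**Figure D3:**
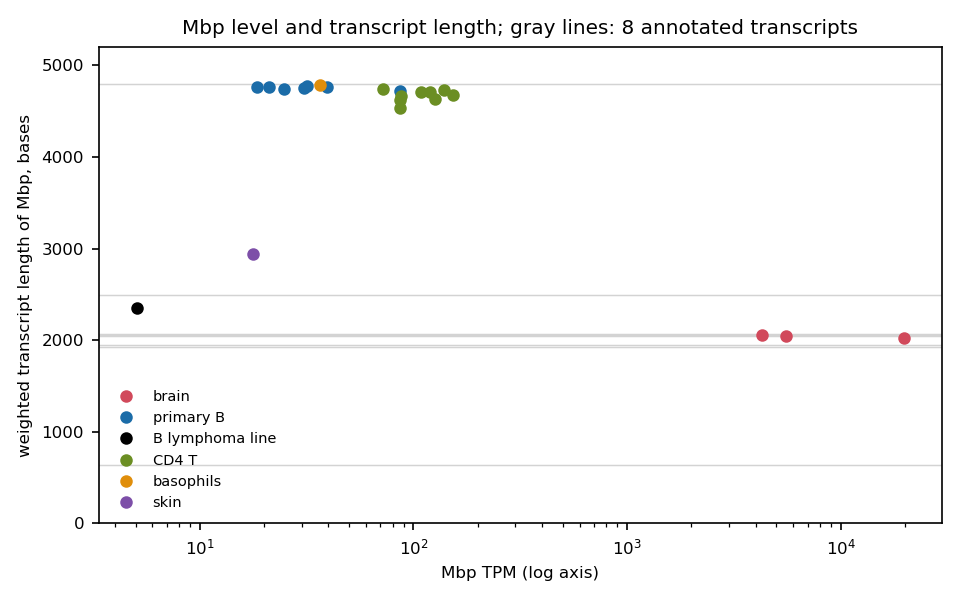
Average length of Mbp transcripts in bases against Mbp TPM on a log axis, with 1 point per library coloured by class and gray lines at the lengths of the 8 annotated transcripts. The 3 brain points lie between 2021 and 2058 bases on the right, the B, T and basophil points lie just under the line at 4797 bases, and skin and CH12 lie between.

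Cnp was almost as high in some lymphocytes as in brain. Outside brain it ranged from 9.70 TPM in skin through a median of 183.6 to 332.8 in splenic B cells, and cortex exceeded splenic B cells only 1.16 times (1.14 to 1.18). By edgeR Cnp was higher in brain by 1.59 ± 0.50 (SE), with an adjusted p of 0.0104, and without the medulla library the difference was 0.82, with an adjusted p of 0.298. Over all alternatives the adjusted p by edgeR, DESeq2 or limma ran from 0.00121 to 0.298. Its transcripts also differed in average length, at 2461 to 2471 bases in brain, 2385 in skin and 2333 to 2349 in the other 18 libraries.

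Between lymphocytes, Mbp was lower in primary B cells than in CD4 T cells. It was at 18.47 to 86.85 TPM (median 30.66) in the 7 B libraries and at 71.66 to 153.2 TPM (median 108.9) in the 9 T libraries. The groups overlapped through aBCD180 B cells, at 86.85 TPM, which lay above the ConA (71.66) and Tfr MUT (86.63) libraries. The next B library, splenic B cells, was at 39.25 TPM. By edgeR the difference was -1.51 ± 0.29 (SE), B minus T, with an adjusted p of 0.000721. In that fit 46.4% of 12437 genes were called, 22.5% higher in T cells and 23.9% higher in B cells. Of the calls 51.5% were higher in B cells, against 43.7% with limma on log2(TPM + 1) and 60.6% without the ConA library. Over all alternatives the difference ran from -1.89 to -1.40, and the adjusted p by edgeR, DESeq2 or limma from 3.27e-06 to 0.00209. Every B library except splenic B cells was an activated culture, while of the T libraries only CD4+ ConA was given a mitogen. The 2 classes thus differed in stimulation in culture as well as in cell type, and its part in the Mbp difference was not tested.

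T-cell genes were low in the aBCD180 library with its high Mbp. Cd3e was at 0.56 TPM there, Cd3d at 0.47, Cd3g at 0.93, Cd28 at 0.21 and Lat at 1.41, against 333.5 to 863.4 TPM of Cd3e in the 9 T libraries. Lck, a kinase of T-cell signalling, was at 207.3 TPM, the highest of the B libraries. CD4 T libraries held up to 169.6 TPM of the B-cell receptor gene Cd79b, which was at 426.8 to 2982 TPM in B cells.

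No difference in Cnp was called between the 2 lymphocyte classes. It was at 94.70 to 332.8 TPM (median 284.9) in B cells and 69.01 to 270.7 TPM (median 183.6) in T cells, with wide overlap. By edgeR the difference was 0.39 ± 0.26 (SE), with an adjusted p of 0.226. The lowest of each class were the LPS+a-d-dextran B library, at 94.70 TPM, and the ConA T library, at 69.01 TPM. The other 7 genes did not pass the filter on low counts in this fit.

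Among the 4 T-cell populations with both kinds of library, Mbp was higher in the unmarked than in the MUT library in 4 of 4 populations. Tfh cells were at 126.7 against 86.89 TPM, non-Tfh at 153.2 against 139.1, CD4+ at 120.1 against 108.9 and Tfr at 87.06 against 86.63. The Tfr values differed by less than counting error, with a ratio of 1.0 (0.98 to 1.03). The mean log2 difference was 0.21 ± 0.23 (SD, n = 4), most of it from Tfh. The summed level of 6 B-cell markers also differed in that pair, at 176.0 TPM in Tfh and 681.7 in Tfh MUT, and ran the other way in Tfr, at 489.6 and 138.5 in MUT. Its part in the Mbp difference was not tested. Cnp was also higher in the unmarked library in 4 of 4, by 0.10 ± 0.09 (SD, n = 4). For both genes the exact sign-flip permutation test gave a two-sided p of 0.125, the smallest that 4 pairs allow. The 4 populations are kinds of CD4 T cell, CD4+ cells include the others, and whether they share animals is not given. They are therefore not known to be independent replicates of the MUT label.

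**Figure D4:**
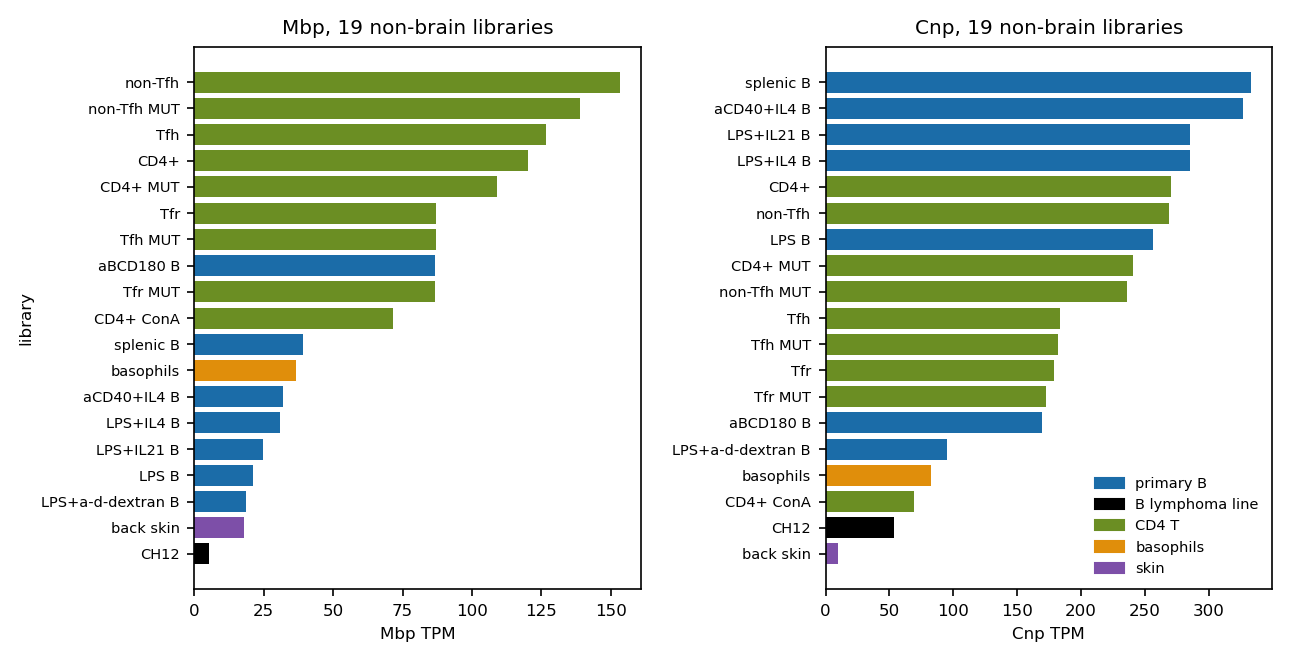
TPM of Mbp (left) and Cnp (right) in the 19 libraries from outside the brain, 1 bar per library, ordered by level and coloured by class. For Mbp 9 of the upper 10 bars are CD4 T cells and the other is aBCD180 B cells, whereas for Cnp the classes are mixed and splenic B cells lead at 332.8 TPM.

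The genes whose pattern over the 22 libraries was most like the mean log2(TPM + 1) of the 9 were ranked by Pearson's r among 13887 genes with a TPM of at least 10 in a library. The first 10 were Gabrg1, Opalin, Rit2, Tmem130, Lhfpl3, Celf6, Wnk3, Cntn6, E130114P18Rik and Rimklb, with r from 0.9969 to 0.9959. Opalin and Lhfpl3 were on the oligodendrocyte lists, and the others, such as the GABA receptor subunit gene Gabrg1, were on none of the gene lists. In all 10 the 3 brain libraries were above the others, with at most 0.23 TPM outside brain, and medulla was the highest. The points share the split between 3 brain and 19 other libraries, and 128 genes had an r above 0.99. Of the 9 genes themselves, Cnp had an r of 0.58 and Mbp of 0.935, and the other 7 lay between 0.987 and 0.997.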

How the data were processed

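Poly(A) RNA of 22 libraries was sequenced for 50 cycles on a HiSeq 3000, per the labels' protocols. Per the file headers, the deposited tables hold for each gene an expected count (estimated reads, shared reads divided, not normalized), a TPM, scaled by the authors so that every library has the same sum, and an average transcript length, in the layout of RSEM. CASAVA 1.8.2, STAR, RSEM, bedtools and the mm10 build come from the submitters' processing notes, with no order or settings. Of counts above 0, 86.1% were whole (within 1e-09), and all were rounded for count models. RSEM's division of reads can shift counts between overlapping transcripts.

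Regions were compared by TPM with exact counting intervals of 95%, and across all genes by the size rule on log2(TPM + 1), a pseudocount of 1. Brain against other libraries and primary B against CD4 T cells were fitted with edgeR 4.0.16 in R 4.3.3 (filterByExpr with a minimum count of 10, TMM, quasi-likelihood F-test, Benjamini-Hochberg adjustment over the genes of a fit, threshold 0.05). On simulated data the brain fit found 3% of genes changed 2-fold and 36% of those changed 4-fold among 16123 genes, with 3 false calls, and the lymphocyte fit 43% and 75% among 12437, with 2. Alternatives were RLE factors, DESeq2 1.42.0, limma 3.58.1, no filter, other pseudocounts, TPM minima and folds, scaled CPM, the 16 primary lymphocyte libraries alone as non-brain, and, left out in turn, each brain library of the brain fit and each library of the lymphocyte fit. Effective length offsets, leaving out aBCD180 B and CD4+ ConA together, and the lymphocyte markers were chosen after seeing the data. The 9 genes and the 14 gene lists were chosen with earlier results of these data known. Named were the 9 genes, the 4 genes of a list with the highest TPM in a brain library (back skin for Schwann cell and melanocyte lists) and the 10 most alike by Pearson's r, of which some list genes are not reported here. Other genes, such as Nkx2-2, Cntn2 or Cd3e, were named after their values were seen. Length minus effective length of Mog was 49.0 in 4 libraries (CH12, CD4+ ConA, LPS+IL4 B, splenic B) and 48.56 to 48.57 in the other 18, and the cause was not tested. Intervals used scipy 1.17.1. Chromatin accessibility data were not analysed here.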

Additional observations from a re-analysis of the deposited data

Results flagged for a closer look

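Mbp was at 86.85 TPM in aBCD180 B cells, far from the other 6 primary B libraries, which lay between 18.47 and 39.25 TPM. Its distance to the next library was 0.696 of the whole range of the 7, above Dixon's critical value of 0.568. Its average Mbp transcript length there, 4725 bases, was the lowest of the B libraries and the level 2.21 times that of splenic B cells. Cnp was at 69.01 TPM in CD4+ ConA cells, below the other 8 CD4 T libraries, which lay between 172.8 and 270.7 TPM. The distance was 0.515 of the range of the 9, above the critical value of 0.493. The library is the most deeply sequenced of the 22 and is 1 of 4 in which the average transcript length and the effective length differed by 49.0 bases. The check was made 8 times, for the highest and lowest library of both classes and genes. In draws from a single population, chance alone flags about 1 in 20 such groups. The libraries of a class differ in treatment or cell population, so a flag cannot separate a stray library from an effect of its treatment.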

How the results depend on the processing

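Of 135 regional differences of the 9 genes under alternatives, 112 stayed within counting error of the main value, and 23, all with TMM- or RLE-scaled CPM, moved by up to 0.09 in log2. None of the 135 changed direction. Cnp in brain lost its call, at 0.82, without the medulla library. With a log2 difference of at least 2 in place of 1, 534 genes differed between medulla and cortex (1744 by the main rule), 654 between medulla and putamen (2038) and 442 between putamen and cortex (1241). With a TPM minimum of 1, 2044 differed between putamen and cortex, and the share higher in medulla than in cortex went from 46.8% to 55.3%. At the higher fold, only Mbp of the 9 genes, at 2.20, met the rule in medulla against cortex, and none against putamen. The brain fit called 8653 genes, 7361 to 7459 with a brain library left out and 8475 to 10859 under the other alternatives. The lymphocyte fit called 5773 genes, 5038 to 6648 with a library left out. Without ConA 60.6% of the calls were higher in B cells and without aBCD180 B 51.1%, against 51.5% with all libraries. Without both it called 6198, with 60.7% higher in B cells. Mag had a value in this fit only without the filter and by DESeq2, where it was higher in B cells on at most 46 counts a library, with adjusted p of 0.0361 by edgeR and 0.0105 by DESeq2. No paired analysis was possible because, in the region, brain and lymphocyte comparisons, each group is 1 library and the labels carry no replicate numbers. The unmarked and MUT T-cell libraries were paired by their labelled population. Levels under about 0.1 TPM rest on a few counts, and with 1 library a region the spread between animals is unknown.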

Other observations

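Mag, though under 1 TPM in the 19 libraries from outside the brain, was above 0 in 15 of them. Its highest levels were 0.61 TPM in basophils on 29 counts, 0.42 in splenic B cells on 46 counts, 0.36 in back skin on 22 counts and 0.19 in aCD40+IL4 B cells on 10 counts. Mag lies 18.8 kb from Cd22, a B-cell receptor gene of the same siglec family on the same strand of chromosome 7. Cd22 was at 1147 TPM in splenic B cells and 961.8 in aCD40+IL4 B cells, and at 0.06 TPM in basophils and 0.62 in back skin. Whether reads of a neighbouring transcript entered the Mag counts was not tested.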
